A study of Mus musculus with 32 samples.

Results

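Collagen and laminin chains were taken as every row of the merged count table whose symbol was Col, a number, a and a number, or Lama, Lamb or Lamc and a digit. The rule found 55 genes among 54429 symbols, 44 collagen chains and 11 laminin chains. Of these, 30 reached a mean of at least 1 CPM (the count divided by the library total and multiplied by 1000000) in at least 1 group, 22 collagens and 8 laminins. The other 25 stayed under that level in all 8 groups. The minimum is a working limit: Col9a3 just passed it with a highest group mean of 1.00 CPM, and Col28a1 just missed it with 0.878 CPM.

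RNA-seq counts came from the Veravec line, mouse lung endothelial cells (ECs) kept in culture. The ECs were transfected with a control siRNA (si-control) or with siRNA against Dnmt1 (si-dnmt), and each siRNA was combined with 4 cytokine states, giving 8 groups of 4 libraries and 32 libraries in all. The states were no cytokine, TNF (TNFα at 10 ng/mL for 16 h), IFN (IFNγ at 1000 U/mL for 16 h) and TNF + IFN for 16 h. All groups were cultures of 1 cell line, and Dnmt1 was reduced by siRNA, not removed. The study calls the replicates biological; p-values measure the spread between these libraries.

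Collagens and laminins are the main structural proteins of the basement membrane, the thin sheet on which ECs sit. Laminin trimers of an alpha, a beta and a gamma chain bind cell surface receptors and form a first network, and collagen IV forms a second network that gives the sheet strength. Fibrillar collagens make the fibres of the tissue around vessels, FACIT collagens coat those fibres, and transmembrane collagens stay anchored in the cell surface. Dnmt1 encodes the enzyme that copies DNA methylation onto new strands at CG pairs. It is the target of the siRNA.

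Total counts were 17362546 to 33500030 per library (median 20859668). Dnmt1 was lower in every si-dnmt library than in every si-control library of the same state, with log2 fold changes of -3.76, -3.87, -3.95 and -4.08 in the 4 states in the order above. In every group, replicates 1 and 2 stood apart from replicates 3 and 4, so some results are also given within each set. All 14 genes of the endothelial marker list reached 1 CPM, led by Cdh5 and Pecam1. Of 10 fibroblast markers 3 did (Thy1, Dcn and Pdgfra), while Tcf21 was at 0 counts and Lum, Dpt and Postn never exceeded 5 counts in a library. Of 8 epithelial markers 2 reached 1 CPM (Krt18 and Krt19) and Epcam, Cdh1 and Sftpc had at most 4 counts. Of 8 leukocyte markers 3 did (Cd68, Lyz2 and Csf1r), and Cd3e was at 0. Of 10 pericyte and smooth muscle markers 4 did (Acta2, Notch3, Pdgfrb and Myh11), and Rgs5, Des and Cspg4 never exceeded 3 counts in a library.

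The basement membrane chains dominated. In si-control ECs without cytokine, the collagen chains together took 1.08% of all counts and the laminin chains 0.169%. Col4a1 (ENSMUSG00000031502) and Col4a2 (ENSMUSG00000031503), which encode the common collagen IV network, held 68.1% of the CPM of the 55 genes. Scaled per kilobase of annotated exon, their levels were 683 and 511 CPM per kilobase. Col18a1, a basement membrane collagen whose end is released as endostatin, followed at 213 on that scale. Next came Lamc1, the common laminin gamma chain, at 95.3. Lamb2 (37.6), Col8a1 (28.1), Lama5 (26.8), Col4a5 (25.8), Lamb1 (17.3) and Lama4 (14.3) formed a middle tier on that scale. Fibrillar chains were lower, Col5a2 at 12.05, Col5a1 at 11.6 and Col3a1 at 6.25, and the transmembrane chain Col23a1 was at 10.1. Col11a1, Col12a1, Col16a1, Col7a1, Col5a3, Col13a1 and Col27a1 lay between 0.214 and 1.87. Lama3, Col1a1, Col6a1, Col9a3, Lamb3, Col19a1, Col6a3 and Col14a1 lay at or under 0.113 in this group and passed the minimum in others.

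Several chains were expressed without the partner that they pair with in tissue. Col6a1 and Col6a3 passed the minimum while Col6a2, the remaining classical chain of collagen VI, never exceeded 4 counts in a library. Col8a1 was abundant and Col8a2 had at most 4 counts. Col1a2, the partner of Col1a1, had at most 8 counts. Of the collagen IV chains, Col4a5 was expressed while Col4a3, Col4a4 and Col4a6 stayed under 0.2 CPM in every group. The other genes under the minimum were Col2a1, Col6a4, Col6a5, Col6a6, Col9a1, Col9a2, Col10a1, Col11a2, Col15a1, Col17a1, Col20a1, Col22a1, Col24a1, Col25a1, Col26a1, Col28a1, Lama1, Lama2 and Lamc3.

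**Figure D1:**
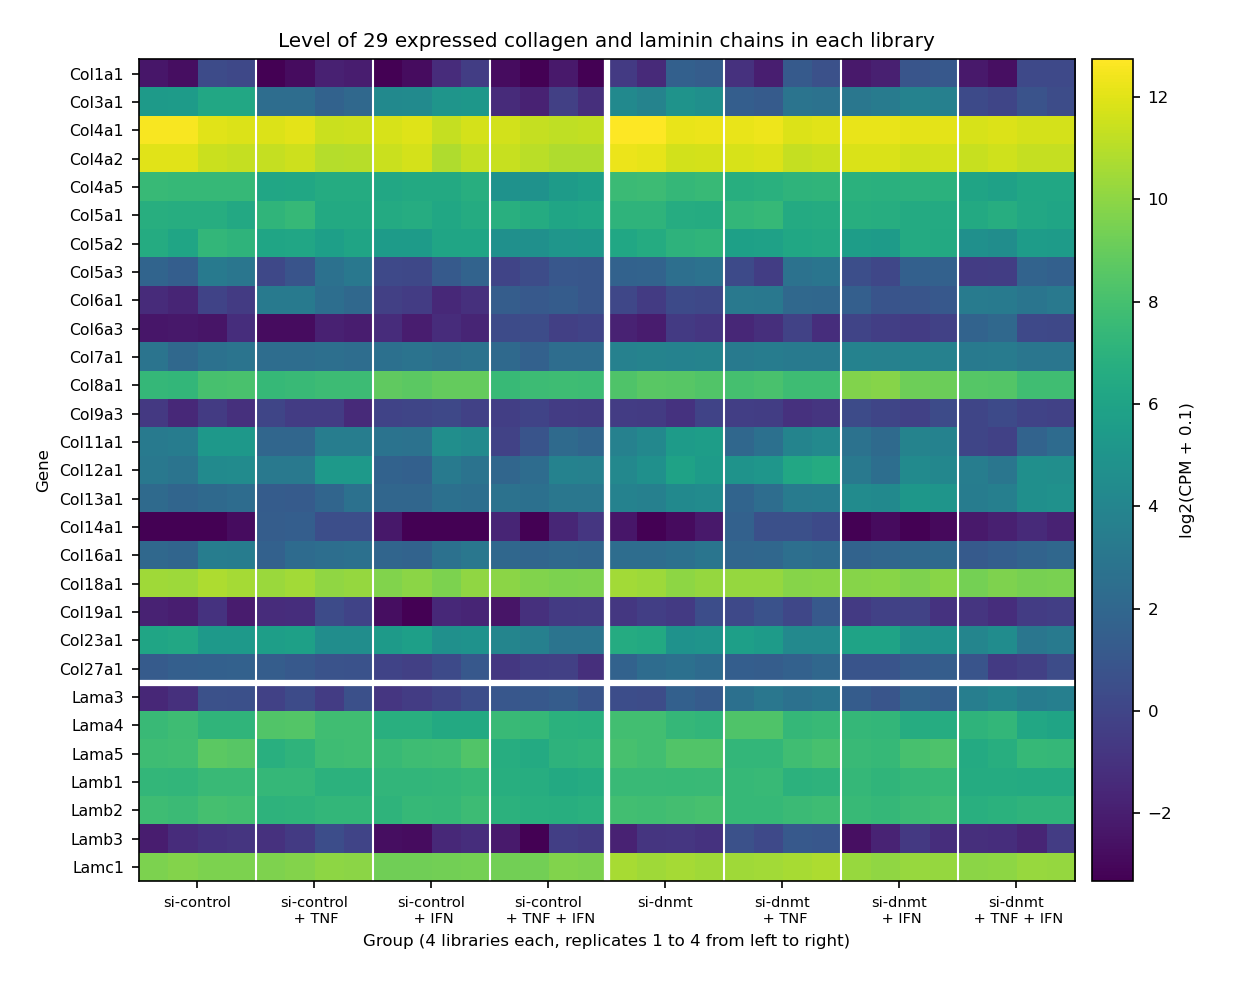
Level of each of 29 expressed chains (rows, collagens above the thick line and laminins below it) in each of the 32 libraries (columns, grouped by siRNA and cytokine state), coloured by log2(CPM + 0.1). Col4a1 and Col4a2 are the brightest rows in every library, and several rows (Col1a1, Col11a1, Col12a1) step between replicates 1 and 2 and replicates 3 and 4 of the same group.

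The first comparison asked how the chains differ between si-dnmt and si-control ECs in each cytokine state. Most of the chains that changed were higher in si-dnmt ECs, and those that rose in all 4 states included the laminin chains Lamc1 and Lama3, the anchoring fibril collagen Col7a1 and the transmembrane collagen Col13a1. Col3a1, a fibrillar collagen of vessel walls, was called lower in some states and higher with TNF + IFN. In the fit of all 32 libraries without a replicate block, no other chain of the 30 was called lower. The most abundant chains, Col4a1, Col4a2 and Col18a1, did not pass the test in any state without the block. With it, Col4a1 and Col4a2 were called higher with TNF, with IFN and with TNF + IFN. The block also called Col18a1 lower without cytokine and with TNF, and Col12a1 higher in all 4 states. In the fit without the block, 8 of the 30 chains changed without cytokine (7 higher, 1 lower). The background was 18.4% of all 15250 genes tested. With TNF 7 changed (7 higher, 0 lower; background 19.9%), 10 did with IFN (9 higher, 1 lower; 20.4%) while TNF + IFN gave 8 (all 8 higher; 17.6%). In percent these are 26.7%, 23.3%, 33.3% and 26.7% of the 30 chains. The share of all genes called higher was 9.55%, 10.3%, 10.8% and 8.92% in the same order, and the share called lower 8.81%, 9.55%, 9.55% and 8.65%. The median log2 fold change of the 30 was 0.24, 0.28, 0.33 and 0.32, and that of all genes lay between -0.007 and 0.004.

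A chain could enter the 30 through only the group in which it was high. These counts and medians therefore describe the chains and are no measure of how often or how far chains respond. Col1a1, Col6a3, Col9a3, Col19a1 and Lamb3 reached a mean of 1 CPM only in si-dnmt groups, which favours higher values with si-dnmt. No chain entered through si-control groups alone. Of the 30, 24 had a mean of at least 1 CPM over all 32 libraries, and of those 7, 6, 8 and 8 changed in the 4 states. With the replicate number as a block in the fit, the counts were 13, 17, 18 and 14 (11, 15, 16 and 13 of them higher).

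**Figure D2:**
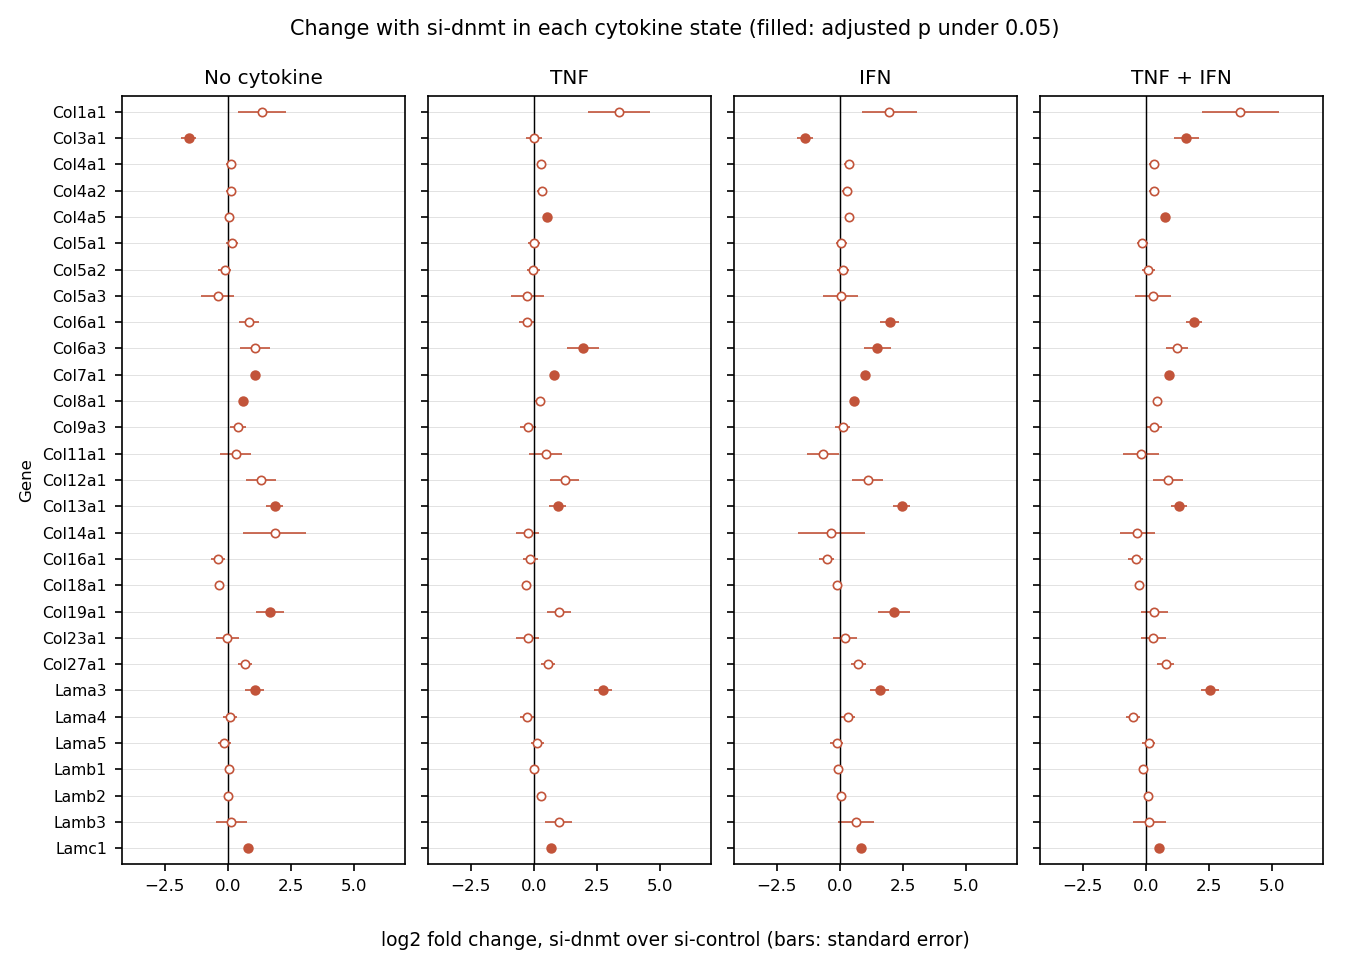
Log2 fold change of si-dnmt over si-control (horizontal axis, bars are standard errors from edgeR) for 29 expressed chains (rows) in the 4 cytokine states (panels); filled points have an adjusted p under 0.05. Lamc1, Lama3, Col7a1 and Col13a1 are filled to the right of 0 in all 4 panels, and Col3a1 is filled to the left in 2 panels and to the right in 1. The fitted values of Col14a1 rest on few counts and depend on the prior count of the fit.

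Lamc1 (ENSMUSG00000026478), the gamma chain of most laminins, rose from an already high level. Without cytokine its level was 768, 846, 773 and 769 CPM in si-control replicates 1 to 4 and 1554, 1404, 1520 and 1395 CPM in si-dnmt replicates 1 to 4. The groups did not overlap, and the replicate sets gave nearly the same values. The rise was 1.76-fold (log2 fold change 0.81 ± 0.09 SE, adjusted p = 3.05e-07). With TNF the levels were 781, 871, 1023 and 976 CPM in si-control and 1374, 1439, 1590 and 1698 CPM in si-dnmt. With IFN they were 608, 603, 627 and 666 CPM against 1201, 1076, 1239 and 1196 CPM. With TNF + IFN they were 641, 649, 818 and 795 CPM against 1001, 1034, 1218 and 1148 CPM. In each of these states every si-dnmt library again lay above every si-control library. The folds were 1.59 with TNF, 1.76 with IFN and 1.44 with TNF + IFN, with adjusted p of 5.14e-06, 2.87e-07 and 1.3e-04.

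Lama3 (ENSMUSG00000024421), an alpha chain of epithelial basement membranes, was low in si-control ECs in every state. With TNF its level was 0.753, 1.196, 0.617 and 1.41 CPM in si-control and 5.92, 7.98, 6.39 and 7.52 CPM in si-dnmt. Under TNF + IFN it was 1.99, 2.05, 2.48 and 1.66 CPM in si-control and 11.7, 15.01, 10.7 and 12.3 CPM in si-dnmt. These groups lay far apart, with folds of 6.64 (adjusted p = 4.35e-06) and 5.79 (adjusted p = 7e-06). With IFN it was 0.476, 0.620, 0.891 and 1.28 CPM against 2.40, 1.82, 3.40 and 2.78 CPM, with no overlap and a fold of 2.98 (adjusted p = 0.00363). Without cytokine the levels were 0.240, 0.367, 1.49 and 1.38 CPM against 1.31, 1.24, 2.90 and 2.35 CPM, and these groups overlapped. That rise was 2.10-fold (adjusted p = 0.0455), and leaving out replicate 1 or 2 of si-control or replicate 3 or 4 of si-dnmt ended the call at log2 fold changes of 0.76 to 0.98. Lamb3, a beta chain of epithelial basement membranes, was rare, with group means of 0.171 to 1.65 CPM, and did not pass the test in any state. Under TNF it had 0.399, 0.574, 1.28 and 0.895 CPM in si-control and 1.47, 1.05, 2.13 and 1.95 CPM in si-dnmt (log2 0.99 ± 0.53, adjusted p = 0.208; with the replicate block 0.026). In GENCODE M21, 197 of the 10745 exonic bases of Lama3 overlap an antisense gene, Gm29200, and the strand setting of the counting is not given in the sources used here.

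The main endothelial laminin chains did not move with Lamc1. Lama4 and Lama5, the alpha chains of vascular basement membranes, and Lamb1 and Lamb2, the beta chains, gave log2 fold changes from -0.52 to 0.31 over the 4 states, and none passed the test. Lamb2 with TNF came nearest, with 135, 142, 157 and 160 CPM in si-control and 176, 174, 193 and 211 CPM in si-dnmt. The groups did not overlap, but the log2 fold change was only 0.27 ± 0.10 (adjusted p = 0.0551; with the replicate block 0.0087). Lama4 with TNF + IFN went the other way, with a log2 fold change of -0.52 ± 0.28 (adjusted p = 0.228; with the replicate block 5.7e-05). The block also called it lower with TNF (-0.30) and higher with IFN (0.27).

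Col7a1 (ENSMUSG00000025650) encodes the chain of the anchoring fibrils that tie basement membrane to the tissue beneath. Without cytokine its level was 7.16, 4.20, 6.32 and 7.10 CPM in si-control and 13.3, 14.3, 13.6 and 14.7 CPM in si-dnmt. With TNF it was 5.19, 5.17, 5.64 and 5.23 CPM against 9.69, 10.6, 9.51 and 9.41 CPM. The si-dnmt libraries were higher in both states without overlap, at folds of 2.13 (adjusted p = 2.37e-06) and 1.76 (adjusted p = 1.18e-04). With IFN it was 6.08, 6.87, 5.76 and 6.4 CPM against 13.7, 12.96, 13.9 and 13.3 CPM. With both cytokines the levels were 4.44, 3.12, 5.19 and 5.14 CPM against 9.73, 9.97, 7.74 and 7.73 CPM. Again no library overlapped, and the folds were 2.01 (adjusted p = 8e-06) and 1.88 (adjusted p = 4.2e-05).

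Col13a1 (ENSMUSG00000058806) encodes a transmembrane collagen of cell adhesion sites. Its largest rise was with IFN, from 3.81, 3.86, 5.97 and 5.49 CPM in si-control to 21.2, 19.6, 36.4 and 33.7 CPM in si-dnmt. Without cytokine it was 4.56, 3.67, 4.38 and 4.93 CPM against 13.7, 12.8, 19.3 and 21.3 CPM. Neither pair overlapped, and the folds were 5.42 (adjusted p = 7.98e-06) and 3.60 (adjusted p = 2.33e-04). TNF + IFN libraries had 6.55, 6.10, 8.12 and 8.08 CPM against 10.6, 11.9, 25.2 and 28.01 CPM, and replicates 3 and 4 of si-dnmt were above replicates 1 and 2. The fold was 2.48 (adjusted p = 0.00493), with log2 fold changes of 0.75 in replicates 1 and 2 and 1.64 in replicates 3 and 4. With TNF it was 2.44, 2.34, 3.75 and 6.13 CPM against 3.52, 5.34, 10.2 and 10.7 CPM, and these groups overlapped. That rise of 1.93-fold (adjusted p = 0.047) lost its call without any one of si-control + TNF replicates 1, 2 and 3 or si-dnmt + TNF replicates 3 and 4, at log2 fold changes of 0.73 to 0.96.

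Since Dnmt1 acts on CG pairs, the bases before the start of Col13a1 and Col7a1, which rose in every state, and of Col3a1, whose direction changed, are shown with each CG in capitals. They are the 250 bases upstream of the RefSeq start in GRCm38.p6, 5′ to 3′ on the gene's strand, at chr10:61979109-61979358 (minus strand), chr9:108953336-108953585 (plus strand) and chr1:45311288-45311537 (plus strand).
Col13a1: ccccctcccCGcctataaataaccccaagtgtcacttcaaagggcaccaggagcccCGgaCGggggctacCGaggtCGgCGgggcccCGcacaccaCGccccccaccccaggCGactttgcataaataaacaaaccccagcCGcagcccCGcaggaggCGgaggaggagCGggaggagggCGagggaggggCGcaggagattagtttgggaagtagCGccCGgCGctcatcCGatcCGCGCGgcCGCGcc
Col7a1: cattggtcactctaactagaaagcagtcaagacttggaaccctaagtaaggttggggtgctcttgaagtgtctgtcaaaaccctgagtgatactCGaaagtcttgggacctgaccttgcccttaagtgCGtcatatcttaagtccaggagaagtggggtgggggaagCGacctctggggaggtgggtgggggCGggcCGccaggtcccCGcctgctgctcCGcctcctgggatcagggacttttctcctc
Col3a1: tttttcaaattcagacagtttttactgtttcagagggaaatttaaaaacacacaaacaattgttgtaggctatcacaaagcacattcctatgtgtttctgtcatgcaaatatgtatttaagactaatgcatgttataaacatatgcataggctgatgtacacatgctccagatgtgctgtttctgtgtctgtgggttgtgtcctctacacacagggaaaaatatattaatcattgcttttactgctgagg
The stretch of Col13a1 holds 24 CG pairs, that of Col7a1 holds 7 and that of Col3a1 holds 0. Over the window of 300 bases around the start (250 before, 50 after), Col13a1 had 29 CG, more than 87.1% of the 32851 windows in the table, and Col7a1 had 12, more than 60.4%. Col3a1 had 0, as did 5.43% of all windows. Windows were used for 21 of the 30 expressed chains, with a median of 16 CG per gene. Lamc1 and Lama3, which rose in every state, were among the chains without one. All windows on the chromosome of Lama3 had been left out. The median over all windows was 7. Those windows were not limited to expressed genes and could hold several of a gene, so the medians cover unlike sets. High and low counts occurred among called and uncalled chains. Col4a1, Col5a1 and Col4a2, not called with si-dnmt in the fit without the block, had 37, 34 and 33 CG. Lamb2, also not called, had 4. Col6a1 and Col6a3, called higher in some states, had 3 each. A relation of CG counts to the siRNA results was not tested. The window count of CG is a description of sequence: methylation of these bases was not measured.

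Col3a1 (ENSMUSG00000026043), a fibrillar collagen of soft tissue and vessel walls, was called lower with si-dnmt in some cytokine states and higher in another. Without cytokine its level was 42.7, 45.2, 80.1 and 77.3 CPM in si-control and 19.2, 14.3, 29.9 and 25.8 CPM in si-dnmt. With IFN it was 19.6, 20.4, 33.2 and 35.7 CPM against 8.15, 9.95, 13.97 and 12.4 CPM. The si-dnmt libraries were lower in both states without overlap, 2.91-fold (log2 -1.54 ± 0.30, adjusted p = 4.55e-04) and 2.59-fold (log2 -1.38 ± 0.30, adjusted p = 0.00149). With TNF it was 5.23, 5.17, 3.22 and 4.15 CPM against 2.74, 2.34, 7.18 and 6.41 CPM. Here the log2 fold change was 0.00 ± 0.32 (adjusted p = 0.998). It was -1.09 in replicates 1 and 2 and 0.81 in replicates 3 and 4, both with an adjusted p under 0.05 within the set. With both cytokines together it was 0.296, 0.186, 0.733 and 0.343 CPM against 1.09, 0.941, 1.61 and 1.21 CPM. These groups did not overlap, and si-dnmt was 3.04-fold higher (log2 1.60 ± 0.48, adjusted p = 0.0208). That last call was lost without any one of si-control + TNF + IFN replicates 1, 2 and 4 or si-dnmt + TNF + IFN replicate 3, at log2 fold changes of 1.38 to 1.55. In GENCODE M21, 141 of the 9816 exonic bases of Col3a1 overlap Gm47302 on the same strand.

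**Figure D3:**
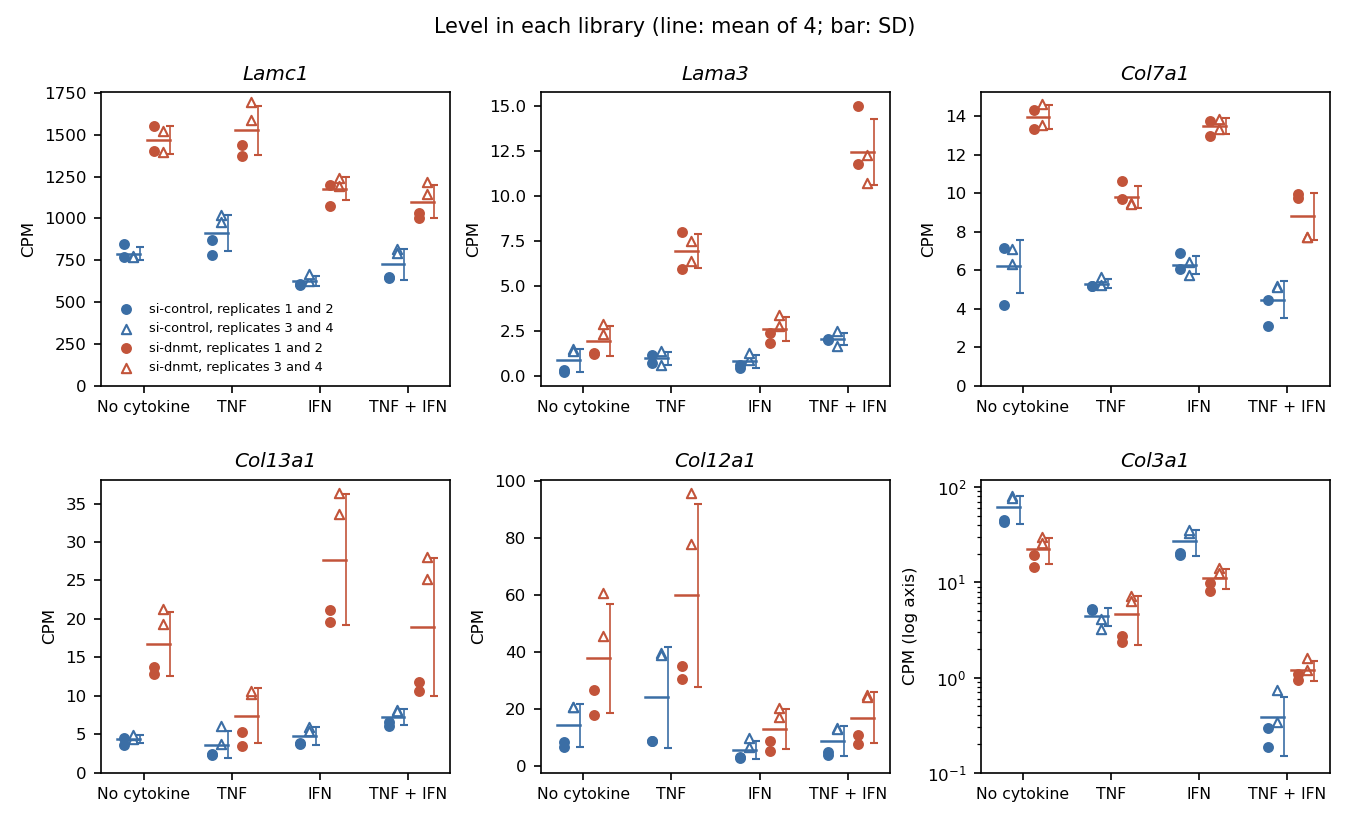
CPM (vertical axis; logarithmic for Col3a1 only) in each library of 4 chains that rose in all 4 states, of Col12a1 and of Col3a1, by cytokine state, with si-control in blue and si-dnmt in red; circles are replicates 1 and 2, triangles replicates 3 and 4, lines the mean of 4 and bars the SD. The red points of Lamc1 and Col7a1 lie above the blue ones in every state, while those of Col3a1 lie below without cytokine and with IFN and above with TNF + IFN.

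The collagen VI chains, subunits of the beaded filaments next to basement membranes, were each higher in si-dnmt ECs in some states, Col6a1 with IFN and with TNF + IFN and Col6a3 with TNF and with IFN. Col6a1 (ENSMUSG00000001119) was 0.740, 0.620, 0.262 and 0.373 CPM in si-control + IFN and 2.85, 1.73, 1.82 and 2.09 CPM in si-dnmt + IFN. Under TNF + IFN it was 2.62, 2.09, 2.48 and 1.86 CPM against 9.96, 9.86, 7.35 and 8.79 CPM. Both pairs of groups stood apart, at folds of 3.91 (adjusted p = 4.45e-04) and 3.77 (adjusted p = 9.95e-05). With TNF alone the levels overlapped, 9.84, 9.76, 5.51 and 4.19 CPM against 8.71, 8.38, 4.26 and 4.01 CPM (log2 -0.27 ± 0.30, adjusted p = 0.588). Without cytokine they were 0.288, 0.210, 0.858 and 0.599 CPM against 0.985, 0.596, 1.12 and 1.02 CPM (log2 0.83 ± 0.39, adjusted p = 0.153).

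Col6a3 (ENSMUSG00000048126) was rarer than Col6a1. With TNF it was 0.0443, 0.0478, 0.176 and 0.141 CPM in si-control and 0.245, 0.349, 0.793 and 0.334 CPM in si-dnmt. With IFN it was 0.317, 0.143, 0.314 and 0.213 CPM against 0.893, 0.702, 0.622 and 0.746 CPM. Both states were higher without overlap (adjusted p = 0.0284 and 0.0483), on 9 against 34 and 19 against 71 counts per group. The TNF call did not survive leaving out replicate 1 or 2 of si-control + TNF or replicate 3 of si-dnmt + TNF (log2 1.46 to 1.72), and the IFN call without any one of the 8 libraries (log2 1.30 to 1.62). With both cytokines the levels were 1.18, 1.21, 0.733 and 0.832 CPM against 3.40, 4.26, 1.06 and 1.01 CPM (adjusted p = 0.0538; with the replicate block 0.03).

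Col8a1 (ENSMUSG00000068196), a short-chain network collagen of vessel linings, was 166, 159, 272 and 282 CPM in si-control and 318, 391, 371 and 336 CPM in si-dnmt without cytokine. With IFN it was 444, 408, 487 and 488 CPM against 836, 884, 594 and 565 CPM. Neither pair overlapped, and the folds were 1.52 (adjusted p = 0.0179) and 1.49 (adjusted p = 0.0239). The size differed between the replicate sets: the log2 fold change without cytokine was 1.05 in replicates 1 and 2 and 0.27 in replicates 3 and 4, and with IFN 0.91 and 0.16, the last with an adjusted p over 0.05. The call without cytokine did not survive leaving out replicate 1 or 2 of si-control or replicate 2 of si-dnmt (log2 0.49 to 0.55), and that with IFN without replicate 1 or 2 of either IFN group (log2 0.44 to 0.56).

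Of the collagen IV chains only Col4a5 passed the test. Col4a5 (ENSMUSG00000031274) was 71.9, 75.4, 92.4 and 93.1 CPM in si-control + TNF and 109, 118, 137 and 143 CPM in si-dnmt + TNF. TNF + IFN libraries had 28.6, 29.3, 44.4 and 52.8 CPM against 65.3, 58.9, 74.6 and 75.4 CPM. In both states every si-dnmt library was higher, at folds of 1.45 (adjusted p = 0.00479) and 1.69 (adjusted p = 2.1e-04). With IFN its libraries did not overlap either, at a log2 fold change of 0.36 (adjusted p = 0.0594; with the replicate block 0.015). Col4a1 and Col4a2 gave log2 fold changes of 0.11 to 0.35, all positive, with adjusted p of 0.172 to 0.735. With the replicate block both passed the test in the 3 cytokine states, with adjusted p of 0.0027 to 0.012. Col18a1 had log2 fold changes of -0.33 to -0.10 (adjusted p of 0.0752 to 0.656), and the block called it lower without cytokine (0.01) and with TNF (0.017).

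Col19a1 (ENSMUSG00000026141), a rare FACIT collagen, was 0.192, 0.157, 0.406 and 0.138 CPM in si-control and 0.516, 0.688, 0.558 and 1.29 CPM in si-dnmt. With IFN it was 0.0529, 0, 0.262 and 0.213 CPM against 0.558, 0.743, 0.813 and 0.418 CPM. The groups did not overlap in either state (adjusted p = 0.0348 and 0.0135), on 19 against 75 and 10 against 59 counts per group. The call without cytokine did not survive leaving out replicate 1, 2 or 4 of si-control or replicate 4 of si-dnmt (log2 1.28 to 1.59). With TNF the log2 fold change was 1.01 (adjusted p = 0.145; with the replicate block 0.032).

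Col12a1 and Col1a1 differed widely between the replicate sets. Col12a1, a FACIT collagen of fibril surfaces, was 8.65, 6.98, 20.8 and 20.9 CPM in si-control and 18.02, 26.6, 60.7 and 45.8 CPM in si-dnmt without cytokine. The groups overlapped although each replicate was higher in si-dnmt. Its log2 fold changes were 1.31, 1.23, 1.09 and 0.88 in the 4 states with adjusted p of 0.12 to 0.341, and with the replicate block all 4 passed the test (adjusted p = 4.7e-07, 2e-07, 4.7e-05 and 2.7e-04). Within replicates 1 and 2 and within replicates 3 and 4 all 4 states were called higher as well. Col1a1, the main chain of collagen I, was 0.0961, 0.0525, 1.17 and 1.01 CPM in si-control and 0.563, 0.275, 2.97 and 2.61 CPM in si-dnmt, also with overlap. Its log2 fold changes were 1.36, 3.38 and 1.96 without cytokine, with TNF and with IFN, with adjusted p of 0.352, 0.0521 and 0.212, and the block gave 0.0016, 2.8e-06 and 7.5e-04. With TNF + IFN, si-control held 3 counts of Col1a1 over the group and si-dnmt 44, a ratio of 16.5 with a 95% counting interval of 5.29 to 83.0 (adjusted p in edgeR = 0.0933; with the block 5.9e-05).

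The remaining chains did not pass the test with si-dnmt. Col27a1, a fibrillar collagen of cartilage, had log2 fold changes of 0.56 to 0.79 in the 4 states with adjusted p of 0.0854 to 0.179, and the block called it without cytokine (0.031) and with IFN (0.044). Col5a1, Col5a2, Col5a3, Col9a3, Col11a1, Col16a1 and Col23a1 gave log2 fold changes between -0.66 and 0.47, and the block called only Col11a1, higher without cytokine (0.38) and with TNF (0.42) and lower with IFN (-0.58). Without cytokine, Col16a1 and Col23a1 went opposite ways in the replicate sets, at log2 0.34 and 0.19 within replicates 1 and 2 (not called) and -0.78 and -0.48 within replicates 3 and 4 (called). Col14a1 held too few counts in most groups, and with TNF, its highest state, it was 2.57, 2.68, 1.32 and 1.37 CPM in si-control and 3.04, 1.40, 1.44 and 1.11 CPM in si-dnmt.

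Markers of other cell types moved with the siRNA and with the cytokines. The summed level of the 10 pericyte and smooth muscle markers was 8.4 to 29.3 CPM in si-control libraries and 43.0 to 203 CPM in si-dnmt libraries without cytokine. With TNF it was 10.7 to 30.1 against 71.3 to 156 CPM, with IFN 19.6 to 68.2 against 83.7 to 242 CPM, and with TNF + IFN 16.95 to 60.8 against 55.7 to 130 CPM. Acta2, smooth muscle actin, carried most of it. Notch3 and Pdgfrb had highest group means of 1.72 and 1.47 CPM, and Rgs5, Des and Cspg4 had at most 3 counts in a library. Acta2 was 9.75, 6.88, 24.6 and 20.2 CPM in si-control and 40.7, 80.8, 196 and 146 CPM in si-dnmt without cytokine (log2 2.83 ± 0.55, adjusted p = 6.26e-04). It was also called higher with TNF (log2 2.58) and with IFN (1.94), and not with TNF + IFN (1.26, adjusted p = 0.101). Myh11, smooth muscle myosin, rose without cytokine (log2 3.13, adjusted p = 0.00653), with group means of at most 1.04 CPM in any state. The part of these genes in the results above was not tested. In bulk RNA, fewer cells of a kind and less RNA per cell cannot be told apart.

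The second comparison asked how TNF, IFN and both together changed the chains in si-control ECs. The mean collagen total was 10770 ± 1896 CPM (SD, n = 4) without cytokine, 7635 ± 1409 CPM with TNF, 7637 ± 1238 CPM with IFN and 5964 ± 859 CPM with both. Libraries with TNF and with IFN overlapped the untreated ones. Those with both did not (5309 to 7190 against 8797 to 12421 CPM). Col4a1 and Col4a2 made up most of the collagen total, and the totals were not tested. The laminin total was 1685 ± 104, 1710 ± 107, 1307 ± 117 and 1271 ± 70 CPM in the same order. More of the 30 chains fell than rose in each state: 7 lower and 4 higher with TNF (background 30.7% of all genes called, 16.1% higher and 14.6% lower), 6 lower and 2 higher with IFN (background 14.4%, 8.52% higher and 5.88% lower), and 15 lower and 7 higher with TNF + IFN (background 45.1%, 23.5% higher and 21.6% lower). The called shares were 36.7%, 26.7% and 73.3% of the 30. The median log2 fold change of the 30 was -0.26, -0.35 and -0.53, and that of all genes lay between -0.009 and -0.006. With the replicate block 21 chains were called with TNF (8 higher), 16 with IFN (2 higher) and 23 with TNF + IFN (7 higher). The 3 comparisons share the same si-control libraries without cytokine. Entry through a group in which a chain was high bears on these counts too, and favours rises. Col14a1 reached 1 CPM only in the 2 groups with TNF alone, and Col19a1 and Lamb3 only in si-dnmt + TNF. Col9a3 did so only in si-dnmt + IFN and Col6a3 only in si-dnmt + TNF + IFN. Of the 24 chains at 1 CPM over all 32 libraries, 9 changed with TNF (2 higher, 7 lower). With IFN 7 did (1 higher, 6 lower) and with both 18 (4 higher, 14 lower).

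The largest falls were in fibrillar collagens. Col3a1, at 42.7 to 80.1 CPM in si-control without cytokine, was 3.22 to 5.23 CPM with TNF, 19.6 to 35.7 CPM with IFN and 0.186 to 0.733 CPM with both, in the libraries given above. No group overlapped the untreated one, and the falls were 13.8-fold, 2.12-fold and 142-fold (adjusted p = 1.2e-09, 0.0109 and 8.98e-14). Col11a1 (ENSMUSG00000027966), a minor fibrillar chain, was 9.56, 10.8, 38.1 and 36.9 CPM without cytokine, 3.90, 3.87, 11.1 and 10.98 CPM with TNF and 0.803, 1.72, 4.68 and 3.67 CPM with both. Its libraries overlapped between none and TNF and not between none and TNF + IFN, and each replicate fell in both. The falls were 3.19-fold (adjusted p = 0.0494, lost without any one of 6 of the 8 libraries, si-control replicates 3 and 4 and the 4 TNF libraries, at log2 -1.93 to -1.36) and 7.92-fold (adjusted p = 9.31e-04). Col5a2, which pairs with Col5a1 in thin fibrils, was 95.9, 70.5, 157 and 139 CPM without cytokine and 26.8, 27.1, 35.1 and 36.6 CPM with both. It fell 1.76-fold with TNF, 1.89-fold with IFN and 3.27-fold with both (adjusted p = 0.0142, 0.013 and 4.13e-06). The TNF call was lost without si-control replicate 3 (log2 -0.64), and the IFN call without that library or si-control + IFN replicate 1 (log2 -0.82 and -0.74).

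The partner Col5a1 did not fall with Col5a2. It was 82.6 to 108 CPM without cytokine, 84.4 to 174 CPM with TNF, 74.5 to 96.5 CPM with IFN and 70.5 to 113 CPM with both, with log2 fold changes of 0.30, -0.07 and 0.02 that did not pass the test. Per kilobase, the ratio of Col5a1 to Col5a2 was 1.08 ± 0.472 without cytokine and 3.32 ± 1.22 with both. Col5a3 fell with TNF + IFN (log2 -1.83 ± 0.70, adjusted p = 0.034), a call lost without replicate 3 or 4 of si-control or replicate 1, 2 or 4 of si-control + TNF + IFN (log2 -1.95 to -1.50). Col27a1 (ENSMUSG00000045672) was 2.35, 2.78, 2.93 and 3.09 CPM without cytokine, 0.846, 0.716, 1.10 and 2.08 CPM with IFN and 0.507, 0.698, 0.733 and 0.343 CPM with both. Every treated library in these states lay below every untreated one, at folds of 2.22 (adjusted p = 0.00749) and 4.33 (adjusted p = 3.3e-06). The block called Col5a3 lower with IFN (log2 -1.54), Col11a1 lower with IFN (-0.59) and Col1a1 lower with TNF (-2.53). With both cytokines the Col1a1 libraries had 0.0423, 0, 0.113 and 0 CPM. Col1a1 fell from 51 counts over the untreated group to 3, an inverse ratio of 16.9 with a 95% counting interval of 5.47 to 84.7. Its edgeR call (adjusted p = 0.0497) was lost without any one of si-control replicates 3 and 4 and the 4 TNF + IFN libraries.

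Basement membrane chains fell as well. Col4a5 fell in all 3 states, from 182, 172, 170 and 170 CPM to 71.9, 75.4, 92.4 and 93.1 CPM with TNF, 80.4, 85.3, 86.0 and 106 CPM with IFN and 28.6, 29.3, 44.4 and 52.8 CPM with both. No libraries overlapped, and the folds were 2.09, 1.81 and 3.99 (adjusted p = 6.46e-07, 2.19e-05 and 1.67e-12). Col4a1 was 6206, 6203, 4132 and 3845 CPM without cytokine and 3189, 2597, 2358 and 2405 CPM with both, lower in every library (1.72-fold, adjusted p = 7.7e-04). With TNF alone it fell 1.49-fold (adjusted p = 0.0143), and that call was lost without replicate 1 or 2 of si-control or replicate 3 or 4 of si-control + TNF (log2 -0.50 to -0.46). Col4a2 fell 1.44-fold with both (adjusted p = 0.0362), lost without replicate 1 or 2 of si-control or replicate 2, 3 or 4 of si-control + TNF + IFN (log2 -0.53 to -0.39). With the replicate block Col4a1 and Col4a2 were called lower in all 3 states, with adjusted p of 0.033 or less. The ratio of Col4a1 to Col4a2 per kilobase was 1.34 ± 0.0137 without cytokine, 1.28 ± 0.0288 with TNF, 1.15 ± 0.0926 with IFN and 1.13 ± 0.050 with both. Their annotated exons overlap by 22 bases.

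Of the laminins, Lamb2 fell in all 3 states, from 217, 196, 261 and 239 CPM to 135, 142, 157 and 160 CPM with TNF, 142, 171, 165 and 202 CPM with IFN and 126, 111, 109 and 118 CPM with both. The IFN libraries overlapped the untreated ones and the others did not. The folds were 1.54, 1.26 and 1.75 (adjusted p = 2.22e-05, 0.0227 and 1.54e-07), and the IFN call was lost without replicate 3 of si-control or replicate 1 or 3 of si-control + IFN (log2 -0.31 to -0.26). Lama5 fell 1.77-fold with TNF (adjusted p = 0.0158) and 2.31-fold with both (adjusted p = 3.8e-04). Its TNF call was lost without replicate 3 or 4 of si-control or replicate 1 or 2 of si-control + TNF (log2 -0.74 to -0.65). Lamb1 fell 1.58-fold with both (adjusted p = 1.21e-05). Lama4 had log2 fold changes of 0.69 with TNF (adjusted p = 0.0648; with the replicate block 2e-06) and -0.70 with IFN (0.107; with the block 2.8e-06), and in both states its libraries did not overlap the untreated ones. Per kilobase, the ratio of Lama4 to Lama5 was 0.606 ± 0.295 without cytokine, 1.77 ± 0.951 with TNF, 0.419 ± 0.148 with IFN and 1.29 ± 0.543 with both. Lamc1 did not pass the test in any of the 3 states (log2 -0.24 to 0.20), and the block called it higher with TNF (adjusted p = 0.044) and lower with IFN (0.024). With TNF the block also called Lamb1 lower (log2 -0.25, adjusted p = 0.041).

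Col18a1 fell with IFN (1.53-fold, adjusted p = 0.00114) and with both (1.59-fold, adjusted p = 1.12e-04). Col23a1, a transmembrane collagen, fell 4.75-fold with both, from 70.8, 79.8, 39.3 and 40.8 CPM to 15.7, 12.8, 7.10 and 7.25 CPM (adjusted p = 5.15e-04). The block called Col23a1 lower with TNF (log2 -0.64) and with IFN (-0.49) too, and Col18a1 (-0.28) and Col16a1 (-0.57) lower with TNF. Col16a1 fell 1.68-fold with both (adjusted p = 0.0382), but its log2 fold change was 0.15 in replicates 1 and 2 and -1.27 in replicates 3 and 4, and the call did not survive leaving out replicate 3 or 4 of si-control or any of the 4 TNF + IFN libraries (log2 -0.78 to -0.47). Col12a1 did not pass the test in any state, and with the block it was higher with TNF (log2 0.62) and lower with IFN (-1.24) and with both (-0.55).

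A smaller set rose, and the sets differed by cytokine. Col6a1 rose with TNF, from 0.288, 0.210, 0.858 and 0.599 CPM to 9.84, 9.76, 5.51 and 4.19 CPM, and with both to 2.62, 2.09, 2.48 and 1.86 CPM. No libraries overlapped, and the folds were 14.6 (adjusted p = 6.31e-09) and 5.12 (adjusted p = 8.4e-06). With IFN alone the log2 fold change was 0.12 ± 0.43. Col6a3 rose with both, from 0.0961, 0.105, 0.0903 and 0.323 CPM to 1.18, 1.21, 0.733 and 0.832 CPM, 7.04-fold (adjusted p = 1.27e-04). Lama3 rose with both 2.61-fold (adjusted p = 0.00366), where the log2 fold change was 2.92 in replicates 1 and 2 and 0.67 in replicates 3 and 4.

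Col14a1 (ENSMUSG00000022371), a FACIT collagen, had 0, 0, 0 and 0.0461 CPM without cytokine, which is 1 count over the group, and 2.57, 2.68, 1.32 and 1.37 CPM with TNF, 173 counts. The ratio was 166 with a 95% counting interval of 29.4 to 6584 (adjusted p in edgeR = 3.67e-07). With both cytokines it had 0.211, 0, 0.226 and 0.490 CPM, 19 counts, a ratio of 19.1 with an interval of 3.04 to 793, and these libraries overlapped the untreated ones. Col19a1 with TNF was 0.310, 0.335, 1.19 and 0.848 CPM against 0.192, 0.157, 0.406 and 0.138 CPM (2.93-fold, adjusted p = 0.0351). Its libraries overlapped, and the call was lost without replicate 1, 2 or 4 of si-control or replicate 3 or 4 of si-control + TNF (log2 1.12 to 1.48).

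Col8a1 was the abundant chain that rose with IFN: 166, 159, 272 and 282 CPM became 444, 408, 487 and 488 CPM. The groups did not overlap (2.22-fold, adjusted p = 2.65e-05), and with TNF or with both the log2 fold changes were -0.18 and 0.05. Col9a3 (ENSMUSG00000027570), a rare FACIT collagen, was 0.528, 0.262, 0.587 and 0.369 CPM without cytokine and 0.846, 0.907, 0.996 and 0.747 CPM with IFN. It rose 2.12-fold (adjusted p = 0.0155), a call lost without si-control replicate 2 or 4 (log2 0.92 and 0.98). With both it rose 1.75-fold (adjusted p = 0.0365), lost without those libraries or si-control + TNF + IFN replicate 1 or 2 (log2 0.64 to 0.80). Of its 3853 exonic bases 234 overlap Tcfl5 on the other strand, so its counts are uncertain. Col13a1 rose 1.84-fold with both (adjusted p = 0.0319), lost without any one of si-control replicates 1, 2 and 3 or si-control + TNF + IFN replicates 3 and 4 (log2 0.82 to 0.90). Col7a1 and Lamb3 did not pass the test in any of the 3 states, and the block called Lamb3 higher with TNF (log2 1.22, adjusted p = 0.026).

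The marker lists moved with the cytokines as well. In si-control libraries the summed level of the 10 fibroblast markers was 96.9 to 162 CPM without cytokine, 103 to 211 CPM with TNF, 188 to 374 CPM with IFN and 210 to 361 CPM with both. In si-dnmt libraries it was 97.6 to 159, 91.1 to 176, 162 to 264 and 130 to 233 CPM. Thy1 was called higher in si-control with IFN (log2 1.24) and with both (1.18), and Dcn, a proteoglycan that binds collagen fibrils, with TNF (5.03) and with both (4.77), while Tcf21 stayed at 0. The 14 endothelial markers summed to 7011 to 10156 CPM without cytokine, 4464 to 6370 CPM with TNF, 5496 to 8495 CPM with IFN and 3938 to 5288 CPM with both in si-control. The 8 leukocyte markers summed to 196 to 225, 125 to 236, 138 to 172 and 90.3 to 155 CPM, and the 8 epithelial markers to 8.70 to 26.7, 5.14 to 12.5, 6.92 to 19.7 and 6.17 to 9.30 CPM. The part of these genes in the cytokine results was not tested.

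Among the 6 tested chains under the expression minimum, 4 changed with TNF + IFN in si-control (background 45.1% of all genes), Lamc3 and Col28a1 higher and Lama1 and Lama2 lower, all at under 1 CPM in every group.

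**Figure D4:**
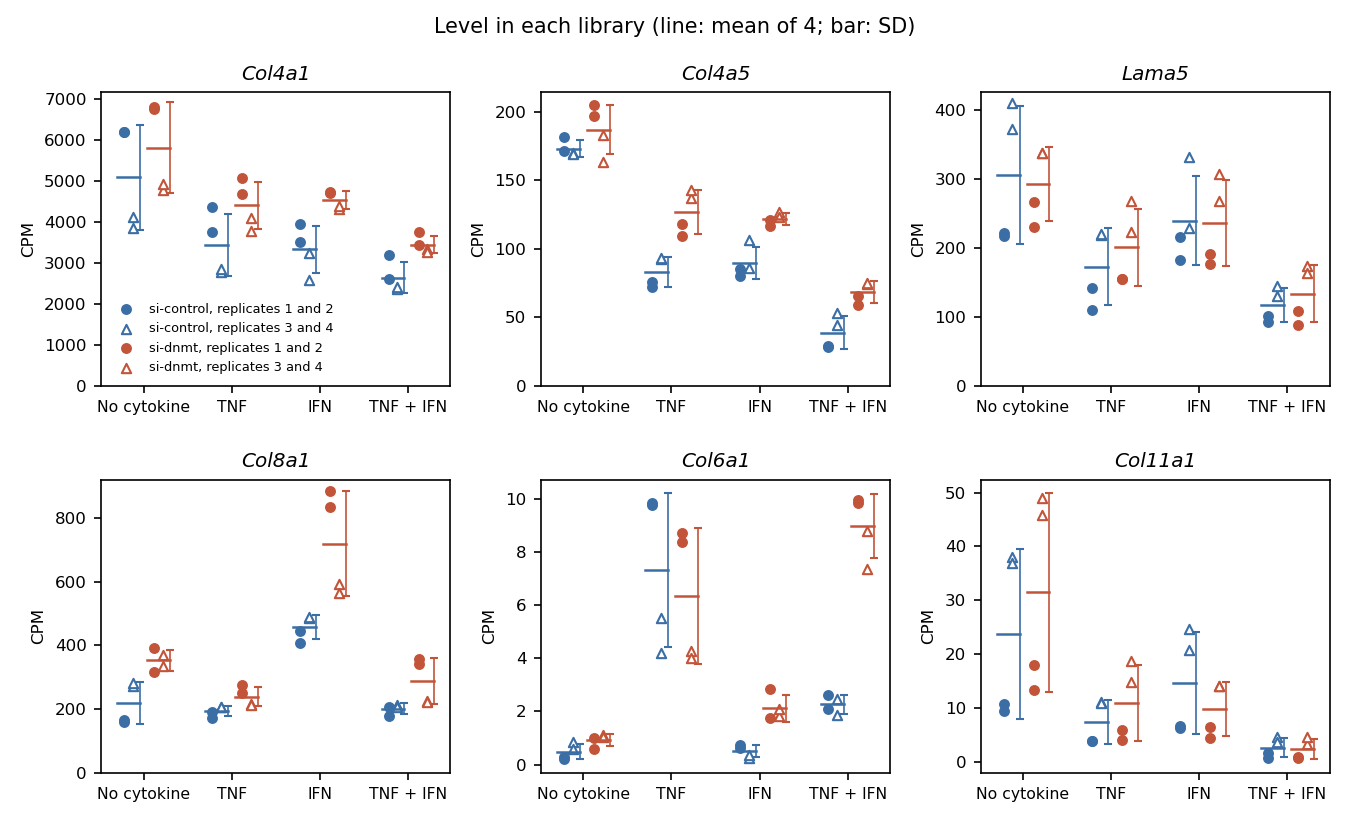
CPM (vertical axis) in each library of 6 chains by cytokine state, with si-control in blue and si-dnmt in red; circles are replicates 1 and 2, triangles replicates 3 and 4, lines the mean of 4 and bars the SD. Col4a5 and Col11a1 are lowest with TNF + IFN, Col8a1 is highest with IFN, and Col6a1 of si-control rises to 4.19 to 9.84 CPM with TNF.

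In si-dnmt ECs the same comparisons gave 12 changed chains with TNF (5 higher, 7 lower; background 21% of all genes, 11.5% higher and 9.51% lower), 4 with IFN (2 higher, 2 lower; background 8.98%, 6.66% higher and 2.32% lower) and 19 with TNF + IFN (5 higher, 14 lower; background 40.1%, 21.3% higher and 18.8% lower). These are 40%, 13.3% and 63.3% of the 30. The 3 comparisons share the si-dnmt libraries without cytokine, and with the replicate block the counts were 21 (7 higher, 14 lower), 15 (4 higher, 11 lower) and 24 (5 higher, 19 lower). The even split with IFN also moved with the scaling, to 2 higher and 5 lower with the size factors of DESeq2 and to 2 higher and 6 lower with DESeq2 itself. Of the 24 chains at 1 CPM over all 32 libraries, 10 changed with TNF (3 higher, 7 lower). With IFN 4 did (2 higher, 2 lower) and with both 17 (3 higher, 14 lower). The mean collagen total went from 11959 ± 2119 CPM to 9307 ± 1268, 9992 ± 693 and 7454 ± 510 CPM, and the laminin total from 2440 ± 101 CPM to 2421 ± 137, 1942 ± 133 and 1703 ± 114 CPM. These totals were not tested, and the collagen totals with TNF and with IFN overlapped the untreated ones. Col3a1 fell 4.77-fold with TNF and 16.1-fold with both (adjusted p = 6.29e-06 and 5.7e-10), and its value with IFN was log2 -0.92 ± 0.30 (adjusted p = 0.0503; with the block 9.2e-04). Col6a1 rose in all 3 states, 6.80-fold, 2.39-fold and 10.9-fold (adjusted p = 8.81e-07, 0.0173 and 3.98e-09), and the IFN call was lost without replicate 2 of si-dnmt or replicate 1 of si-dnmt + IFN (log2 1.09 and 1.10). Lama3 rose 3.56-fold with TNF and 7.19-fold with both (adjusted p = 2.75e-04 and 1.45e-07). Lamb3 rose with TNF, from 0.188, 0.459, 0.483 and 0.417 CPM to 1.47, 1.05, 2.13 and 1.95 CPM (4.20-fold, adjusted p = 0.00885). Col13a1, high in si-dnmt without cytokine, fell 2.25-fold with TNF (adjusted p = 0.0101), and Col7a1 fell 1.42-fold with TNF and 1.40-fold with both (adjusted p = 0.00923 and 0.0059). Col14a1 went from 6 counts to 139 with TNF, a ratio of 28.4 with an interval of 12.7 to 78.7.

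The chains that the block added in si-dnmt ECs were mostly lower. With TNF these were Col4a1 (log2 -0.39), Col4a2 (-0.31), Col11a1 (-1.56), Col23a1 (-0.79), Col27a1 (-0.63), Lama5 (-0.57) and Lamb1 (-0.30), while Col12a1 (0.65) and Lama4 (0.29) were higher, with adjusted p of 1.7e-09 to 0.043. With IFN they were Col3a1, Col5a2 (log2 -0.68), Col5a3 (-1.22), Col11a1 (-1.55), Col12a1 (-1.50), Col18a1 (-0.38), Lama4 (-0.52), Lamb2 (-0.29) and Lamc1 (-0.24), while Col9a3 (0.79) and Col13a1 (0.79) were higher, with adjusted p of 1.6e-09 to 0.049. With both they were Col1a1 (log2 -1.41), Col4a2 (-0.32), Col5a3 (-1.34), Col12a1 (-0.99) and Lama4 (-0.72), all lower, with adjusted p of 5.1e-07 to 0.0078.

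Of the other chains called in si-dnmt ECs, Col6a3 rose with both (log2 2.96). Col8a1 rose with IFN (log2 1.12), as in si-control, and fell with TNF (-0.56), a call lost without replicate 2 or 3 of si-dnmt or replicate 3 or 4 of si-dnmt + TNF (log2 -0.54 to -0.50). Col4a5 fell in all 3 states (log2 -0.56, -0.54 and -1.27), Lamb2 with TNF (-0.36) and with both (-0.75), and Col27a1 with IFN (-1.10) and with both (-2.0). Col5a2 fell with TNF (log2 -0.71) and with both (-1.50), and its TNF call was lost without replicate 3 or 4 of si-dnmt or replicate 1, 2 or 3 of si-dnmt + TNF (log2 -0.76 to -0.58). With both cytokines Col11a1 (log2 -3.50), Col23a1 (-1.94), Lama5 (-0.96), Lamb1 (-0.83), Col18a1 (-0.61) and Col4a1 (-0.57) fell too. Each of the remaining calls with both was lost without 1 of several libraries. Lamc1 fell (log2 -0.24), lost without replicate 1 or 3 of si-dnmt or replicate 1, 2 or 4 of si-dnmt + TNF + IFN (log2 -0.24 to -0.20). Col16a1 fell (log2 -0.76), lost without replicate 3 or 4 of si-dnmt or replicate 1, 2 or 3 of si-dnmt + TNF + IFN (log2 -0.80 to -0.64). Col9a3 rose (log2 0.75), lost without any one of replicates 1, 2 and 3 of either group (log2 0.59 to 0.79).

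**Figure D5:**
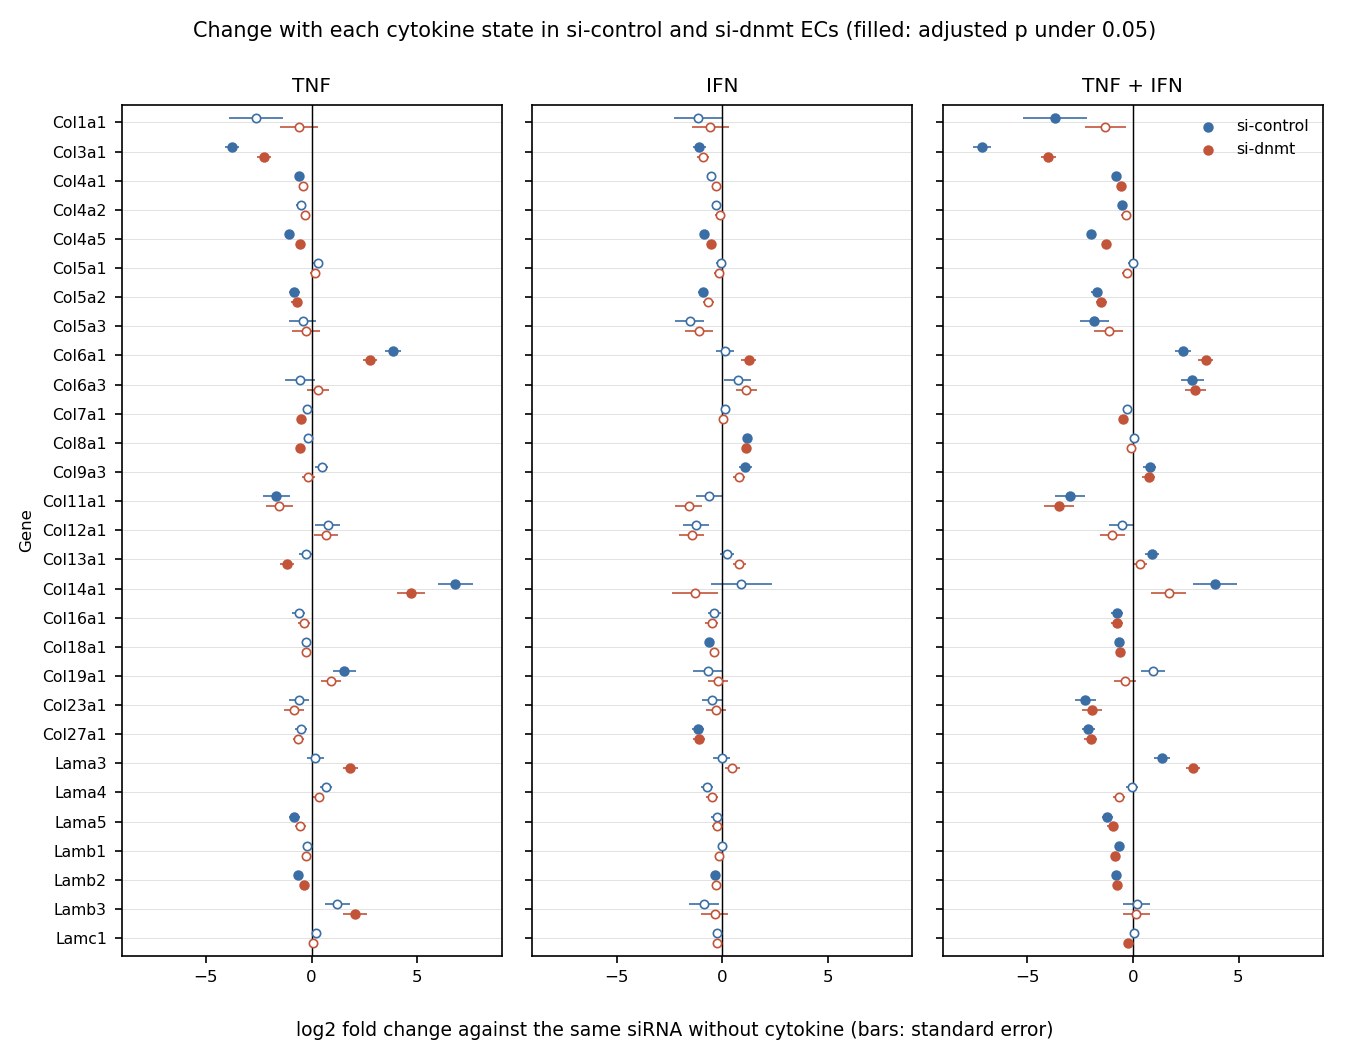
Log2 fold change of TNF, IFN and TNF + IFN (panels) against no cytokine (horizontal axis, bars are standard errors from edgeR) for 29 expressed chains (rows) in si-control (blue) and si-dnmt (red) ECs; filled points have an adjusted p under 0.05. Col3a1 is far to the left with TNF + IFN, more so in si-control, Col6a1 and Col14a1 are to the right with TNF, and Col8a1 is to the right with IFN alone. The fitted values of Col14a1 and Col1a1 rest on few counts.

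The third comparison asked whether the siRNA changed the response to a cytokine. Of the 30 chains only Col3a1 passed the test of interaction, with TNF + IFN (log2 3.14 ± 0.56, adjusted p = 0.00628; background 0.511% of all genes). Its fall with both cytokines was 142-fold in si-control and 16.1-fold in si-dnmt. The difference held in replicates 1 and 2 (log2 3.43) and in replicates 3 and 4 (log2 2.91). Col3a1 was at 0.186 to 0.733 CPM in si-control + TNF + IFN, so the size of the 142-fold fall rests on few counts. For TNF and for IFN, edgeR called 0 chains (background 0.0328%, with 0.00656% higher and 0.0262% lower, and 0.0459%), DESeq2 also called 0, and 4 and 0 chains had an unadjusted p under 0.05. For TNF + IFN, 6 chains had one, and DESeq2 called 2. The replicate block called 1 chain for TNF, Col3a1 (log2 1.41, adjusted p = 0.018), 1 for IFN, Col11a1 (log2 -0.96, adjusted p = 0.021), and 3 for TNF + IFN, Col3a1, Col4a5 (log2 0.73, adjusted p = 0.0076) and Lama4 (log2 -0.66, adjusted p = 0.0057). The larger Lama3 rise with TNF in si-dnmt was not called as a difference (log2 1.66 ± 0.52, adjusted p = 0.387; with the block 0.084).

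Genes that process, partner or bind the chains were read from 3 lists. Of 35 genes of collagen synthesis and crosslinking, 29 were tested, and with si-dnmt 5, 7, 5 and 6 were higher and 0, 1, 2 and 4 lower in the 4 states. Over all genes tested 9.55%, 10.3%, 10.8% and 8.92% were higher and 8.81%, 9.55%, 9.55% and 8.65% lower. Adamts14, a procollagen protease, P3h2, a prolyl hydroxylase acting on basement membrane collagen, and Pxdn, the peroxidase that crosslinks collagen IV, were higher in all 4. Pxdn was 454, 519, 353 and 359 CPM in si-control and 827, 782, 593 and 571 CPM in si-dnmt without cytokine, without overlap (log2 0.64 ± 0.17, adjusted p = 0.0104). P3h2 was 11.8, 13.8, 7.77 and 8.48 CPM against 19.4, 18.9, 22.2 and 19.9 CPM (log2 0.86 ± 0.21, adjusted p = 0.00454). Adamts14 was 0.865, 0.578, 1.49 and 1.38 CPM against 2.39, 3.62, 2.94 and 3.41 CPM (log2 1.43 ± 0.24, adjusted p = 1.19e-04). All 3 genes had every si-dnmt library above every si-control library in this state. With TNF + IFN in si-control, 9 of the 29 were higher and 10 lower, with TNF 4 and 8, and with IFN 3 and 3. Over all genes these shares were 23.5% higher and 21.6% lower with TNF + IFN, 16.1% and 14.6% with TNF, and 8.52% and 5.88% with IFN.

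Of 26 basement membrane and matrix partners, 23 were tested, and with si-dnmt 3 were higher and 0 lower in each state, against 8.92% to 10.8% higher and 8.65% to 9.55% lower over all genes. Thbs1, the matricellular protein thrombospondin, and Vwa1, a basement membrane protein, were higher in all 4. Thbs1 was 1338, 1169, 1229 and 1261 CPM in si-control and 2675, 3038, 4778 and 3828 CPM in si-dnmt without cytokine (log2 1.43 ± 0.20, adjusted p = 6.28e-06). Vwa1 was 0.144, 0.157, 0.632 and 0.507 CPM against 0.657, 1.19, 3.09 and 2.73 CPM (log2 2.30 ± 0.46, adjusted p = 7.07e-04). Neither gene's groups overlapped. With TNF + IFN in si-control, 4 of the 23 were higher and 10 lower (all genes 23.5% and 21.6%), with TNF 3 and 6 (16.1% and 14.6%), and with IFN 3 and 3 (8.52% and 5.88%).

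Of 27 receptors of collagen and laminin, 24 were tested, and with si-dnmt 2, 4, 3 and 2 were higher and 3, 2, 3 and 1 lower, against 8.92% to 10.8% and 8.65% to 9.55% over all genes. Itgav, the alpha V integrin chain, was higher in all 4 states, and Antxr1, a collagen-binding receptor, was lower in all 4. Itgav was 155, 137, 130 and 139 CPM in si-control and 217, 230, 452 and 372 CPM in si-dnmt without cytokine (log2 1.09 ± 0.19, adjusted p = 1.13e-04). Antxr1 was 85.0, 98.3, 72.3 and 80.4 CPM against 75.8, 70.8, 48.5 and 51.5 CPM (log2 -0.53 ± 0.16, adjusted p = 0.0196). The Itgav groups stood apart and the Antxr1 groups overlapped. With TNF + IFN in si-control, 7 of the 24 were higher and 8 lower (all genes 23.5% and 21.6%), with TNF 6 and 7 (16.1% and 14.6%), and with IFN 3 and 2 (8.52% and 5.88%). Over the 3 lists, 0 genes passed the interaction test.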

How the data were processed

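Per the labels, RNA-seq libraries of the 32 cultures were made and the authors deposited raw counts per gene, 1 table per library and 1 table merged by symbol. The submitters' processing notes name cutadapt 4.9, FastQC 0.12.1, MultiQC 1.27.1, featureCounts and DESeq2. Not given in the sources used here are the aligner, genome build, annotation and strand setting. The merged table equalled the summed library tables, with 0 cells differing, and each of the 55 chains had 1 identifier. The labels of the si-dnmt + TNF libraries spell the siRNA si-dnmtl, 3 titles excepted, and were read as si-dnmt. Whether doses were the same when both cytokines were given is not stated apart.

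Low rows were removed by filterByExpr of edgeR (minimum count 10). This left 15250 genes, which held 99.9% or more of each library's counts, among them all 30 expressed chains and 6 others of the 55. All 32 libraries were fitted with 8 group means and TMM factors (0.880 to 1.09) in edgeR 4.0.16 (R 4.3.3). Contrasts used the quasi-likelihood F test (two-sided). P-values were adjusted by Benjamini and Hochberg over all 15250 genes, and calls needed an adjusted p under 0.05. Folds and log2 fold changes ± SE come from this fit, and CPM values from library totals. The fit was also run on simulated counts. These held no replicate sets, so that run does not bear on how the sets affect the calls.

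Same-numbered libraries of the groups compared deviated together (correlations of 0.299 to 0.618). The highest correlation with a library of any other number was 0.300 to 0.563. Within a group, replicates 1 and 2 correlated at 0.281 to 0.474 and replicates 3 and 4 at 0.255 to 0.498. Replicates 1 and 2 against 3 and 4 gave -0.593 or lower. Deviations were taken from the group mean, which by itself pushes correlations within a group below 0. The positive values within the sets thus show 2 replicate sets. They cannot decide whether libraries pair by number, since the best of several values was set against a single one. The numbers were taken from the titles, and a fit with the replicate number as a block is given where it changes a call. Where every library of a group held 3 counts or fewer, ratios of summed counts carry 95% exact intervals, which cover counting error only. Exon lengths and overlaps are from GENCODE M21, and promoter windows from RefSeq GRCm38.p6.

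The chains, gene lists and tests were chosen with earlier results of these data known. Every chain at 1 CPM in a group is named, except 1 that enters the counts and medians and is not reported here. Libraries are listed for chains called alike in at least 3 siRNA contrasts and for the 2 largest called rises and falls of each siRNA and si-control cytokine contrast, and, chosen after their values were seen, for some others. Of each list, genes called alike in all 4 siRNA contrasts are named. Alternatives were DESeq2 1.42.0, its size factors, no filter, the block, the compared groups fitted alone, each replicate set alone and each library left out.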

Additional observations from a re-analysis of the deposited data

Results flagged for a closer look

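Of 240 sets of 4 libraries (30 chains in 8 groups), 7 held a library whose gap to the nearest other, divided by the range, exceeded Dixon's 95% critical value. Chance gives about 1 in 20 such sets. Lamc1 was 846 CPM in si-control replicate 2, with the others at 768 to 773. Col4a5 was 182 CPM in si-control replicate 1, with the others at 170 to 172. Col6a3 was 0.323 CPM in si-control replicate 4, with the others at 0.0903 to 0.105. Col7a1 was 5.64 CPM in si-control + TNF replicate 3, with the others at 5.17 to 5.23. Col14a1 was 3.04 CPM in si-dnmt + TNF replicate 1, with the others at 1.11 to 1.44, and it was 0.0461 CPM in si-control replicate 4 and 0.106 CPM in si-control + IFN replicate 1, where the others were at 0.

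The siRNA effect differed between cytokine states for Col3a1: the interaction with TNF + IFN was 3.14 ± 0.56 on the log2 scale (adjusted p = 0.00628).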

How the results depend on the processing

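The counts of called chains among the 30 moved most with how the replicate sets were treated. With the replicate number as a block, the siRNA counts were 13, 17, 18 and 14 (no cytokine, TNF, IFN, TNF + IFN), the si-control counts 21 with TNF and 16 with IFN, the si-dnmt counts 21 with TNF and 15 with IFN, and the interaction counts 1, 1 and 3. The block ended no call, and it added those given with the results above. In replicates 1 and 2 alone, the siRNA counts were 14 with TNF and 14 with TNF + IFN, the si-control IFN count 13, the si-dnmt counts 19 with TNF and 17 with IFN, and the interaction counts 2 for TNF and 7 for TNF + IFN. In replicates 3 and 4 alone, they were 15 without cytokine, 19 with TNF and 14 with TNF + IFN for the siRNA, 23 with TNF and 15 with IFN in si-control, 12 with IFN in si-dnmt, and 7, 1 and 11 for the interactions. The compared groups fitted alone gave 5 siRNA calls without cytokine, no filter on low counts gave 7 with TNF in si-control, DESeq2's size factors gave 7 and DESeq2 gave 8 with IFN in si-dnmt, and DESeq2 gave 2 for the TNF + IFN interaction. All other counts stayed within 1.5 times those reported, and the cause of the shifts was not tested.

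Leaving out each library in turn gave 5 to 10, 5 to 8, 8 to 11 and 7 to 10 siRNA calls, 8 to 12, 6 to 9 and 17 to 20 in si-control, 10 to 12, 3 to 5 and 16 to 18 in si-dnmt, and 0 to 0, 0 to 0 and 1 to 2 interactions. The siRNA count without cytokine was 5 without si-control replicate 1 or 2, and the TNF + IFN interaction count was 2 without si-control + TNF + IFN replicate 4. Of values called over all libraries or within a replicate set, 4 changed sign between the 2: Col3a1 (log2 0.81) and Col5a2 (0.30) with si-dnmt under TNF and Col8a1 (-0.24) with TNF + IFN in si-control, all in replicates 3 and 4, and Col16a1 (0.15) with TNF + IFN in si-control in replicates 1 and 2. A further 46 values in replicates 1 and 2 and 36 in replicates 3 and 4 changed sign without being called in either fit. The cause was not tested. A minimum of 0.5 or 2 CPM left 37 or 25 chains, TMM-scaled CPM left 29, and the separate library tables left 30. Counting only chains at 1 CPM over all 32 libraries, an alternative chosen after seeing the data, moved no total of called chains by over 1.5 times. The split by direction moved more. In si-control with TNF, IFN and both, the higher calls went from 4, 2 and 7 to 2, 1 and 4. In si-dnmt they went from 5, 2 and 5 to 3, 2 and 3. Chains under 1 CPM rest on few counts, which limits their precision.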
